A study of Homo sapiens with 4 samples.

Results

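Selenoproteins contain selenocysteine, an amino acid that is encoded by UGA, a codon that otherwise ends translation. The mRNAs of 10 selenoprotein genes (GPX1, GPX4, SELENOF, SELENOH, SELENOK, SELENOM, SELENOT, SELENOW, TXNRD1 and TXNRD2) were compared between the nucleus and the cytoplasm of human cells. They were taken by symbol as mRNAs with a UGA selenocysteine codon. The rule names no measured value, but the choice was made with earlier results of these data known. They are 10 of the 51740 rows of the table that compares the fractions. In the annotation 25 genes carry such a codon, and the other 15 are described after the 10. The RNA came from HEK293T, a human embryonic kidney cell line that expresses the SV40 large T antigen. The cells were wildtype, were fixed with formaldehyde in every group, and were separated into a nuclear fraction (2 libraries) and a cytoplasmic fraction (2 libraries), which the study describes as independent biological replicates. Ribosomal RNA was depleted from 400 ng of RNA per library before stranded sequencing of paired ends of 100 nt. Since the same mass of RNA entered each library, a value is relative to the other RNA of its fraction and is not an amount per cell. More RNA of a gene cannot be told apart from less of the other RNAs in that fraction. Nuclei were obtained after detergent lysis, and RNA on membranes attached to nuclei was not measured apart.

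To insert selenocysteine, a ribosome that reaches the UGA codon needs a hairpin in the 3′ untranslated region of the same mRNA, the SECIS element, together with a protein that binds it (SECISBP2), a dedicated elongation factor (EEFSEC) and a dedicated tRNA. If selenocysteine is not inserted, translation ends at the UGA codon, and when an exon junction follows far enough downstream the mRNA can become a substrate of nonsense-mediated decay, which acts in the cytoplasm on translated mRNAs. Cells in which selenium is short are known to lose some selenoprotein mRNAs, that of GPX1 among them, more readily than others. The proteins fall into glutathione peroxidases, thioredoxin reductases, small redox proteins with a thioredoxin-like fold, and proteins of the endoplasmic reticulum (ER).

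The UGA codons are shown first, since they define the group. Each line gives 12 bases before and 12 bases after the codon, which is in capitals (written TGA as in the genome), 5′ to 3′ along the reference transcript (MANE Select) of GENCODE 44 on hg38.
GPX1: gtggcgtccctcTGAggcaccacggtc
GPX4: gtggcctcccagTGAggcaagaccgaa
TXNRD1: caggctggctgcTGAggttaagcccca
TXNRD2: gtgacaggctgcTGAgggtaagcgcca
SELENOH: cattgcactagcTGAcgcgtctatggg
SELENOT: atttgtgtttccTGAggttataggcgg
SELENOW: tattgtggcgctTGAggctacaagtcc
SELENOF: gaagtttgtggaTGAaaattgggaagg
SELENOM: acctgcgggggaTGAcagctgaaccgc
SELENOK: atggctggtggaTGAggaaggtaaatg
The base that follows the codon was G in 7 of the genes, C in 2 (SELENOH and SELENOM) and A in 1 (SELENOF). Of the 24 flanking bases, TXNRD1 and TXNRD2 shared 18 and GPX1 and GPX4 shared 16, the highest numbers among the 45 pairs of genes. The next pairs, SELENOF with SELENOK and SELENOT with SELENOW, shared 12 each.

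The codons lie on 6 chromosomes. On the plus strand they are at chr19:1105403-1105405 (GPX4), chr11:57741816-57741818 (SELENOH), chr3:150622392-150622394 (SELENOT), chr19:47780732-47780734 (SELENOW) and chr12:104348413-104348415 (TXNRD1). On the minus strand they are at chr3:49358132-49358134 (GPX1), chr1:86880690-86880692 (SELENOF), chr3:53885831-53885833 (SELENOK), chr22:31105951-31105953 (SELENOM) and chr22:19877111-19877113 (TXNRD2). In both thioredoxin reductases the codon was the last but 1 of the coding sequence, number 648 of 649 in TXNRD1 and 523 of 524 in TXNRD2. SELENOK also carried it near the end, as codon 92 of 94. In the other 7 genes at least 69 codons followed it. SELENOW had the earliest, codon 13 of 87.

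The genes also differed in where the codon sat relative to the last exon junction of the mature transcript. The distance to that junction was 470 nt in SELENOT, 342 nt in GPX4, 267 nt in SELENOH, 243 nt in SELENOW, 135 nt in SELENOM, 105 nt in GPX1, 78 nt in SELENOF and 71 nt in TXNRD2. Only 2 of the 10 genes had the codon within 50 nt of the last junction or beyond it. In SELENOK the junction followed after 5 nt, and in TXNRD1 the codon lay in the last exon, 63 nt past the junction.

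**Figure D1:**
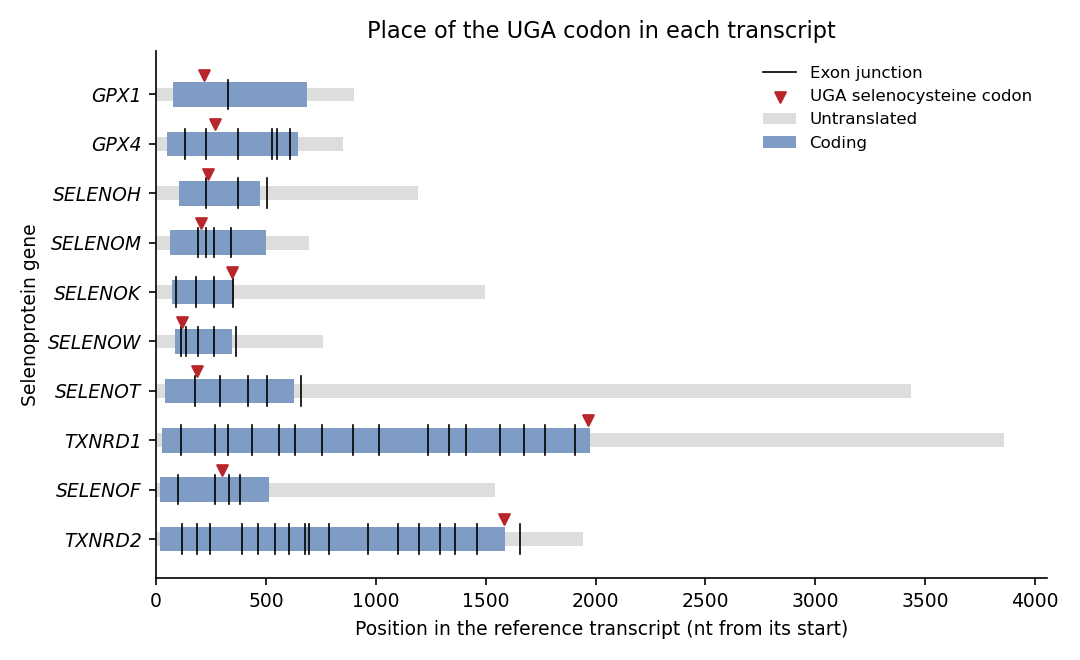
Reference transcript of each gene drawn to scale in nt from its start, with the coding part in blue, untranslated parts in grey, exon junctions as black lines and the UGA selenocysteine codon as a red triangle. The codon sits early in the coding part of most genes, and at its end in TXNRD1 (codon 648 of 649), TXNRD2 (codon 523 of 524) and SELENOK (codon 92 of 94).

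The fold changes, their errors and their p-values are those that the authors obtained with DESeq2. A positive log2 fold change means a higher normalized count in the cytoplasmic than in the nuclear fraction. The authors' scaling does not set the totals of the fractions equal, so this need not be a higher share of the cytoplasmic RNA. A gene was called at an adjusted p of at most 0.01. The table prints 1 mean per gene, but its digits, together with the fold change and its error, fixed the whole count of each library for all 10 genes. These recovered counts ranged from 73 for SELENOM in a nuclear library to 5905 for GPX4 in a cytoplasmic library. Below, normalized counts are recovered counts divided by the size factor of the library, and the libraries are given in the order nuclear A, nuclear B, cytoplasmic A and cytoplasmic B. The letters are names only, because the table does not show which replicate number each library had. Fractions were recognisable by marker RNAs: MALAT1 and NEAT1, which stay in the nucleus, had log2 fold changes of -3.47 and -3.09, and GAPDH and EEF1A1 of 3.78 and 4.09. Of the markers expected in HEK293 cells, NEFM was at a mean normalized count of 16264, INA at 162.9, PAX2 at 63.1 and LHX1 at 244.6, whereas ALB, PTPRC, HBB and CDH5, markers of other cells, were at 2.34 or less.

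Of the 10 genes, 9 were enriched in cytoplasmic RNA and 0 in nuclear RNA. The gene that did not pass was TXNRD2, with an unadjusted DESeq2 p of 0.192. Among all 23333 tested genes the cytoplasmic calls made up 25.9% and the nuclear calls 26.5%, and among the 15336 tested protein-coding genes the cytoplasmic calls made up 35.6%. The median log2 fold change of the 10 genes was 2.33, against -0.12 over all tested genes and 0.11 over protein-coding genes. Over all 21 tested selenoprotein genes it was 1.88, with 15 called cytoplasmic and 1 nuclear. In 9 of the 10 genes both cytoplasmic libraries were above both nuclear libraries. The same order held in 39.8% of the 22060 tested genes with recovered counts. Libraries of the same fraction differed by at most 1.64-fold in any of the 10 genes. With only 2 libraries per fraction, an exact two-sided permutation test of a single gene cannot give a p below 0.333, so the p-values rest on the model fitted across all genes. A limma fit to the recovered counts, limited to genes with means over 50, called the same 9 genes. It called 11068 of the 13490 genes it covered, so a call in this fit was common to most genes. Without that limit, leaving out nuclear library A or nuclear library B left 0 of the 10 genes called by limma, and leaving out cytoplasmic library B left 8, SELENOF being lost with an adjusted p of 0.0128.

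The scaling matters for the genes with small differences. The authors' size factors left the normalized counts of the cytoplasmic fraction at a sum 1.58 times that of the nuclear fraction. When both sums were set equal, each log2 fold change was lower by 0.66, and 7 of the 10 genes were called cytoplasmic and 1 nuclear, with cytoplasmic calls for 16.2% and nuclear calls for 38.3% of all tested genes. The split over all tested genes then moved from 6046 cytoplasmic and 6175 nuclear genes to 3777 and 8930. The calls that changed were those of TXNRD1, SELENOF and TXNRD2, given below with their values.

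**Figure D2:**
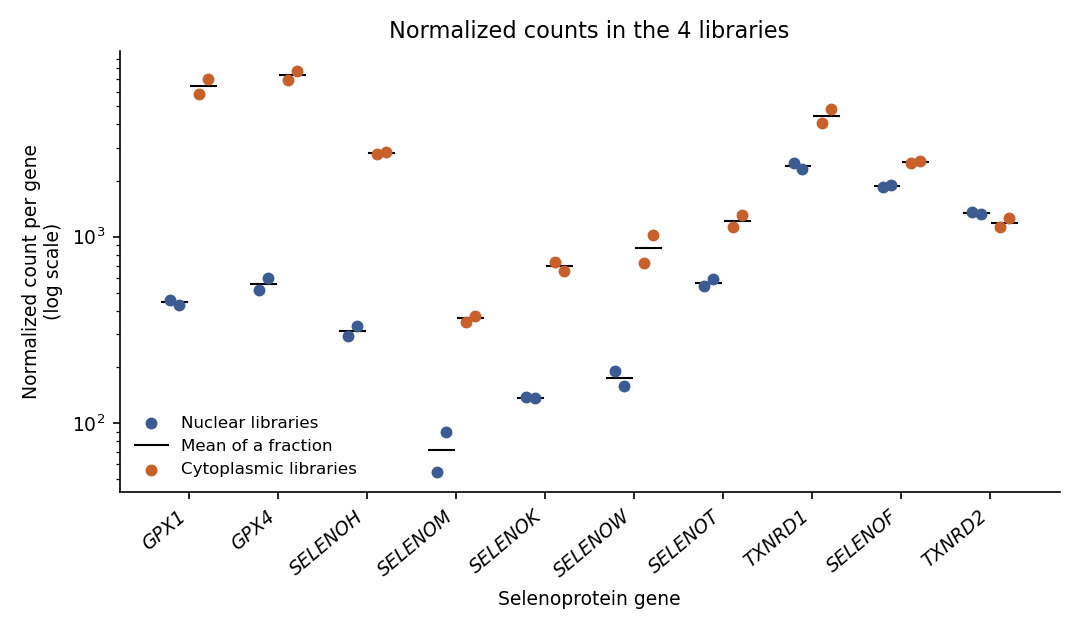
Normalized count of each gene (log scale) in the 2 nuclear libraries (blue) and the 2 cytoplasmic libraries (orange), with the mean of each fraction as a black line. GPX1 and GPX4 lie at 432 to 601 in the nuclear and 5840 to 7763 in the cytoplasmic libraries, whereas both fractions of TXNRD2 lie between 1126 and 1358.

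The glutathione peroxidases had the highest fold changes of the 10 genes. GPX1 is the abundant cytosolic enzyme that reduces hydrogen peroxide with glutathione. Its normalized counts were 456, 432, 5840 and 6975. The cytoplasmic libraries were both far above the nuclear ones, and the fraction means differed 14.4-fold (95% interval 12.1 to 17.2). This is a log2 fold change of 3.85 ± 0.13 (SE), and the DESeq2 adjusted p was 2.63e-191. GPX4 reduces lipid hydroperoxides within membranes and protects cells from ferroptosis. In GPX4 the normalized counts were 517, 601, 6924 and 7763, again with a wide gap between the fractions. The fold was 13.1 (95% interval 11.1 to 15.6), a log2 fold change of 3.72 ± 0.13 (SE), and the DESeq2 adjusted p was 9.79e-191. Log2 fold changes were lower than that of GPX1 in 99.5% of protein-coding genes, and lower than that of GPX4 in 99.3%.

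Both peroxidases were close to each other. The log2 fold change of GPX1 exceeded that of GPX4 by 0.13, with a 95% interval from -0.22 to 0.49, and a comparison within the 4 pairs of a cytoplasmic with a nuclear library gave differences from -0.07 to 0.32. A difference between them was not detectable with these libraries. The values of GPX1 carry a further uncertainty, because the processed pseudogene GPX1P1, a copy of its mRNA elsewhere in the genome, had normalized counts of 42.5, 50.5, 594 and 771. Its mean was 10.6% of that of GPX1 and its log2 fold change was 3.88 ± 0.24 (SE). How reads that fit both copies were assigned is not given in the sources used here. In the annotation, GPX1 is covered by 1 readthrough gene and SELENOH by 2, and the authors removed readthrough transcripts before counting. Of 7 further pseudogenes named after SELENOK, SELENOT, SELENOW or GPX1, none had a mean above 1.57.

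The thioredoxin reductases had lower fold changes than the peroxidases and differed from each other. TXNRD1, the higher of them, was below GPX4 by 2.82 on the log2 scale of fold changes (95% interval 2.48 to 3.17). These flavoproteins use NADPH to reduce thioredoxin, TXNRD1 in the cytosol and TXNRD2 in mitochondria. TXNRD1 had normalized counts of 2483, 2296, 4066 and 4818, so that both cytoplasmic libraries were above both nuclear ones. The fold was 1.86 (95% interval 1.57 to 2.20), with a log2 fold change of 0.89 ± 0.12 (SE) and a DESeq2 adjusted p of 1.69e-12. Under equal library totals it was 0.23 with a recomputed adjusted p of 0.0925, and the call was lost.

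TXNRD2 had normalized counts of 1358, 1324, 1126 and 1256. The cytoplasmic libraries were both below the nuclear ones, by little. The fold was 0.888 (95% interval 0.742 to 1.06), a log2 fold change of -0.17 ± 0.13 (SE), and with a DESeq2 adjusted p of 0.260 it was not called. Under equal library totals the log2 fold change was -0.83 with a recomputed adjusted p of 7.76e-10, which placed TXNRD2 in the nuclear fraction. The difference between the reductases does not depend on the scaling, because each scaling shifts all genes by the same amount. TXNRD1 exceeded TXNRD2 by 1.07 on the log2 scale. The 95% interval of this difference ran from 0.71 to 1.42, and the 4 pairs of a cytoplasmic with a nuclear library gave 0.98 to 1.15. Other genes of the annotation cover 14.8% of the span of TXNRD1. The authors removed stretches covered by more than 1 gene before counting.

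Among the small redox proteins with a thioredoxin-like fold, SELENOH stood highest. SELENOH is a nucleolar protein that binds DNA. SELENOH had normalized counts of 293, 331, 2774 and 2860, with both cytoplasmic libraries far above both nuclear ones. The fold was 9.03 (95% interval 7.53 to 10.8), a log2 fold change of 3.17 ± 0.13 (SE), with a DESeq2 adjusted p of 7.43e-123. SELENOW, a small cytosolic protein named for its abundance in muscle, had normalized counts of 189, 159, 723 and 1023. The cytoplasmic libraries differed from each other 1.41-fold, the widest cytoplasmic spread of the 10 genes, but were both above the nuclear ones. The fold was 5.0 (95% interval 3.80 to 6.59), and the log2 fold change of 2.32 ± 0.20 (SE) had a DESeq2 adjusted p of 1.27e-29. SELENOT, which is anchored in the ER membrane, had normalized counts of 545, 589, 1126 and 1312. It was 2.15-fold higher in the cytoplasmic fraction (95% interval 1.76 to 2.63), with a log2 fold change of 1.10 ± 0.15 (SE) and a DESeq2 adjusted p of 4.43e-13. SELENOW exceeded SELENOT by 1.22 on the log2 scale of fold changes (95% interval 0.73 to 1.71).

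The remaining genes encode proteins of the ER. SELENOM, a small redox protein of the ER lumen, had the lowest counts of the 10 genes. Its normalized counts were 54.4, 89.1, 351 and 378. The nuclear libraries differed 1.64-fold, and both were below both cytoplasmic ones. The fold was 5.09 with the widest interval of the group in relative terms (95% interval 3.56 to 7.29), and the log2 fold change was 2.35 ± 0.26 (SE) with a DESeq2 adjusted p of 3.05e-18.

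SELENOK spans the ER membrane, where it binds p97 and takes part in palmitoylation and in the degradation of ER proteins. It had normalized counts of 138, 136, 735 and 659. The nuclear libraries were almost equal and the cytoplasmic ones well above them. The fold was 5.08 (95% interval 3.94 to 6.56), a log2 fold change of 2.35 ± 0.19 (SE), with a DESeq2 adjusted p of 3.65e-35.

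SELENOF is bound to UGGT, the sensor of glycoprotein folding in the ER lumen. Its normalized counts were 1844, 1892, 2479 and 2551. Replicates lay within 1.03-fold of each other in both fractions, and the fractions did not overlap. The fold was small, 1.35 (95% interval 1.15 to 1.57), with a log2 fold change of 0.43 ± 0.12 (SE) and a DESeq2 adjusted p of 0.000442. Under equal library totals the log2 fold change turned to -0.23 with a recomputed adjusted p of 0.0670, and when centred on the protein-coding median it was 0.32 with a recomputed adjusted p of 0.0110. SELENOF was therefore called on the deposited scale but under neither of these scalings.

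Ordered by log2 fold change, the genes ran from GPX1, GPX4 and SELENOH through SELENOM, SELENOK and SELENOW to SELENOT, TXNRD1, SELENOF and TXNRD2. Of the 45 pairs of genes, 40 had a 95% interval of the difference that lay above 0, with the errors taken as independent and without adjustment over the pairs. The 5 pairs whose interval included 0 were GPX1 with GPX4, the 3 pairs among SELENOM, SELENOK and SELENOW, and SELENOT with TXNRD1. The difference between SELENOT and TXNRD1 was 0.21 (95% interval -0.17 to 0.59), and in the 4 pairs of a cytoplasmic with a nuclear library it ran from 0.09 to 0.33, above 0 in each.

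**Figure D3:**
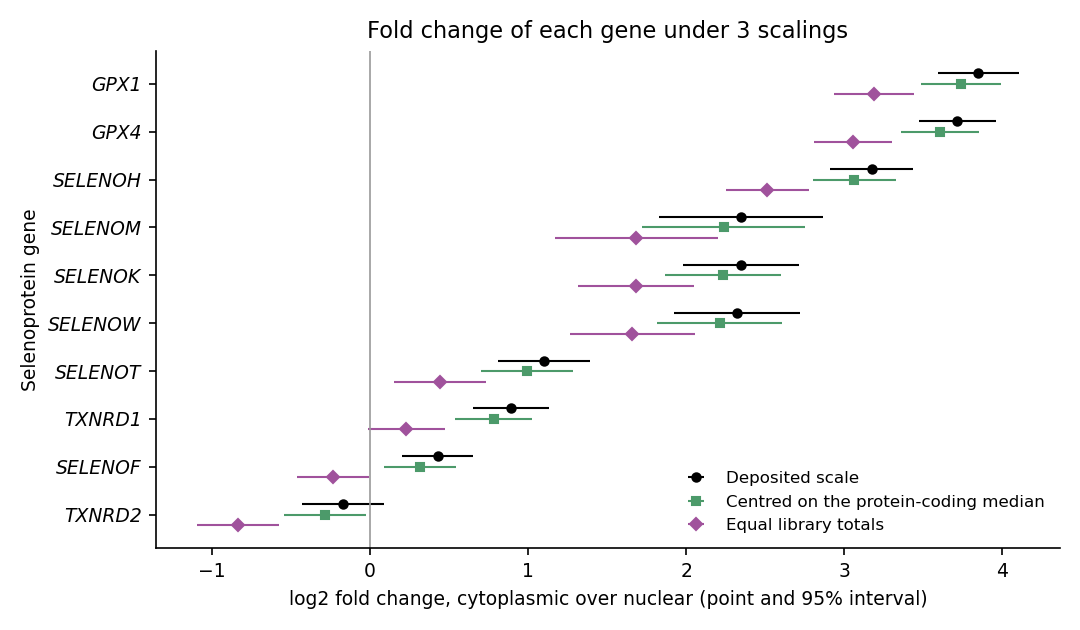
Log2 fold change of each gene, cytoplasmic over nuclear, as points with 95% intervals, on the deposited scale (black circles), centred on the protein-coding median (green squares) and with equal library totals (purple diamonds). Each scaling shifts all genes by the same amount, so their order is the same by construction. With equal totals the point of SELENOF moves from 0.43 to -0.23 and that of TXNRD2 from -0.17 to -0.83.

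Levels of different genes were compared per kb of exonic length, since a longer RNA gives more reads. In the cytoplasmic fraction, GPX1 had the highest level of the 10 genes, 4474 ± 560 normalized counts per exonic kb (SD, n = 2), followed by GPX4 at 3991 ± 323. These neighbours overlapped between libraries. SELENOH followed at 1365 ± 29.3 and SELENOF at 1143 ± 23.2, with libraries that did not overlap. At the lower end, SELENOW was at 169 ± 41.1 and TXNRD2 at 145 ± 11.3, which overlapped, and SELENOM was lowest at 114 ± 6.01.

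In the nuclear fraction the order of these levels was different. SELENOF was highest at 849 ± 15.4 normalized counts per exonic kb (SD, n = 2) and TXNRD1 second at 356 ± 19.7, ahead of GPX1 at 310 ± 11.9 and GPX4 at 304 ± 32.5, which overlapped each other. SELENOM was lowest on this scale in both fractions, at 22.5 ± 7.70 in the nuclear one. The nuclear order depended on the length used. Per kb of gene span GPX1 was highest in the nuclear fraction as well, at 310 normalized counts per kb, GPX4 followed at 199, and SELENOF stood at 35.9. Exonic length joins the exons of all annotated isoforms, which for SELENOW came to 5.16 kb. Per kb of the reference transcript of each gene, a length chosen after the data were seen, GPX4 led GPX1 in the cytoplasmic fraction, at 8629 against 7127 normalized counts per kb. By the same measure SELENOW stood next to TXNRD1, at 1152 against 1151. The lowest levels per kb of the reference transcript were those of SELENOT in the cytoplasmic fraction (355) and SELENOK in the nuclear fraction (91.6), while SELENOM was at 525 and 103 normalized counts per kb. By this measure TXNRD2, at 691, was second in the nuclear fraction after SELENOF, with libraries that overlapped those of GPX4 at 657. The nuclear libraries of SELENOK and SELENOM overlapped as well. Per kb of span TXNRD2 had the lowest cytoplasmic level, 18.0. Introns were counted as well, so that no length describes the counted RNA in full.

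Gene span, which the rule did not use, varied widely across the 10 genes. Like exonic length, span takes in all annotated isoforms, and which isoforms these cells used was not measured. GPX1 spans 1.43 kb, SELENOH 2.06 kb and GPX4 2.81 kb, and these were the 3 genes with the highest fold changes. SELENOW spans 6.01 kb, SELENOK 7.47 kb and SELENOM 15.3 kb. SELENOT spans 27.6 kb, SELENOF 52.0 kb, TXNRD2 66.3 kb and TXNRD1 134.5 kb, and these were the 4 lowest. Across the 10 genes, Spearman's rho of span with log2 fold change was -0.903, and with intron length -0.845, given as a description because the genes were measured in the same 4 libraries and counted over introns. The same rho with span was -0.708 over 12134 protein-coding genes with a mean over 50 (-0.823 over the 21 tested selenoprotein genes).

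Protein-coding genes were therefore split into 10 equal parts by span to set each gene beside others of like length. The log2 fold change of TXNRD1, 0.89, was 1.79 above the median of -0.90 of its part, the largest such difference of the 10 genes, and 96.2% of the genes there were lower. GPX1 and GPX4 were in the shortest part, whose median log2 fold change was 2.24, and exceeded it by 1.60 and 1.47, with 96.3% and 94.3% of the genes of that part lower. SELENOM was 1.27 above its part, SELENOH 0.93, SELENOK 0.84, SELENOT 0.69 and SELENOF 0.59. SELENOW and TXNRD2 were at 0.08 and -0.01 from the medians of their parts. In all, 8 of the 10 genes were more than 0.5 above the median of their part, as were 30.3% of the 12134 protein-coding genes. SELENOF and SELENOT lay at the lower edge of their parts and were 0.22 and 0.41 above the median of the adjacent shorter part. SELENOK, at 7.47 kb, and SELENOW, at 6.01 kb, lay on either side of an edge at 6.66 kb. Their log2 fold changes were close, 2.35 and 2.32, but the medians of their parts were 1.51 and 2.24. Their distances of 0.84 and 0.08 therefore depend on where that edge falls. No test was made of this, and mean counts were not matched.

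**Figure D4:**
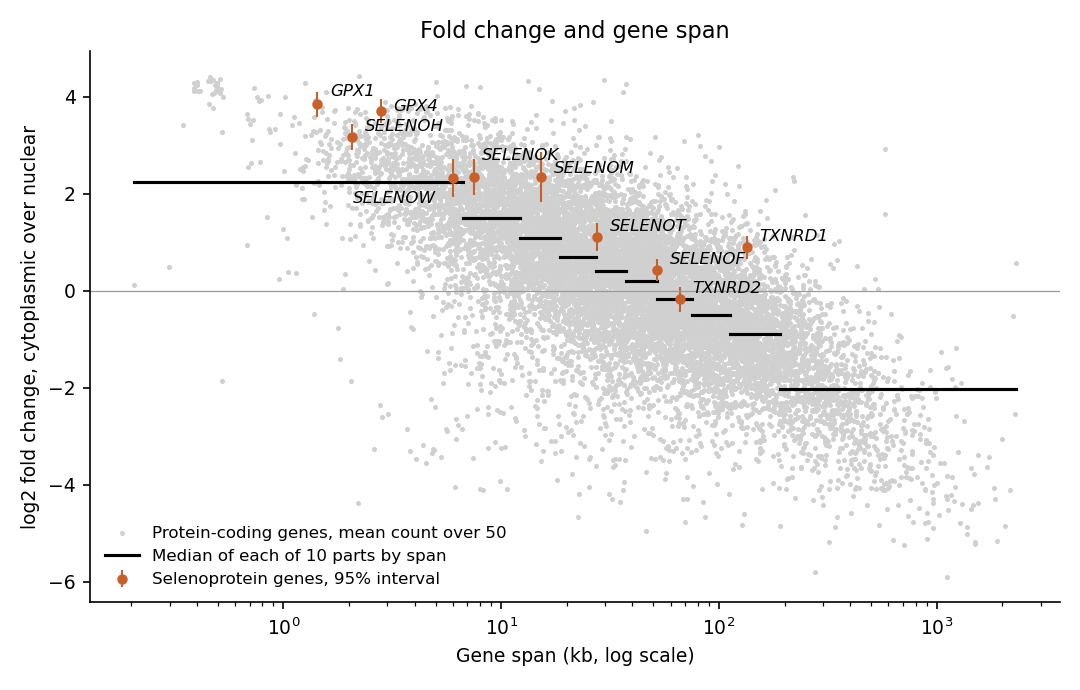
Log2 fold change, cytoplasmic over nuclear, against gene span (kb, log scale) for 12134 protein-coding genes (grey), with the median of each of 10 parts of the genes by span (black lines) and the 10 selenoprotein genes with their 95% intervals (orange). TXNRD1 lies 1.79 above the median for its span, and TXNRD2 0.01 below.

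The place of the UGA codon was set beside the fold changes as well. The 8 genes with the codon over 50 nt before the last junction had log2 fold changes from -0.17 to 3.85, with a median of 2.34. The 2 others were TXNRD1 at 0.89 and SELENOK at 2.35, both within that range. Among 11 other tested selenoprotein genes, 4 with the codon over 50 nt before the last junction ranged from 1.12 to 2.62 (the lowest is SELENOV, with a mean of 2.40 counts and a standard error of 2.27), 6 with the codon closer to it or past it from -4.86 to 2.40, and SEPHS2, which has no junction, was at 2.99. Genes were placed by their first UGA codon, and in SELENOP 9 of 10 such codons lie past the last junction.

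Of the 15 other selenoprotein genes, 11 were tested. Among the 11, 6 were called cytoplasmic and 1 nuclear (all tested genes, 25.9% and 26.5%), and 4 did not pass. The median log2 fold change of the 11 was 1.34 (all tested genes, -0.12). The largest cytoplasmic values were 2.99 for SEPHS2, which makes the selenium donor for selenocysteine, 2.62 for GPX3, the peroxidase secreted into plasma, and 2.40 for MSRB1, a methionine sulfoxide reductase. DIO2, a deiodinase that activates thyroid hormone, was the nuclear one. DIO2 had normalized counts of 134, 153, 7.04 and 2.65, with a log2 fold change of -4.86 ± 0.62 (SE) and a DESeq2 adjusted p of 1.42e-14. DIO2 spans 190.2 kb in the annotation. The third thioredoxin reductase, TXNRD3, was named after its values were seen. It had normalized counts of 452, 469, 410 and 419 and a log2 fold change of -0.15 ± 0.17 (SE), and was not called, as TXNRD2 was not. With equal library totals the list had 6 cytoplasmic and 4 nuclear genes (all tested genes on that scale, 16.2% and 38.3%).

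The genes listed for selenocysteine synthesis and insertion, which include other proteins that bind SECIS elements, were divided. Of 12 tested, 5 were called cytoplasmic, 2 were called nuclear and 5 did not pass, with a median log2 fold change of 0.22. Among protein-coding genes 35.6% were called cytoplasmic, and among all tested genes 26.5% were called nuclear. The largest cytoplasmic values belonged to RPL30 at 3.53, EIF4A3 at 1.93 and SARS1 at 1.90. RPL30 is a ribosomal protein that also binds SECIS elements, EIF4A3 is part of the exon junction complex and binds a subset of SECIS elements, and SARS1 charges the selenocysteine tRNA with serine. The nuclear genes were EEFSEC and SECISBP2. EEFSEC, the elongation factor, had normalized counts of 3588, 3107, 704 and 712, with a log2 fold change of -2.24 ± 0.13 (SE) and a DESeq2 adjusted p of 2.54e-65. SECISBP2, the SECIS-binding protein, had normalized counts of 2128, 2293, 1331 and 1256, with a log2 fold change of -0.77 ± 0.12 (SE) and a DESeq2 adjusted p of 1.32e-09. In both, the nuclear libraries lay above the cytoplasmic ones. EEFSEC spans 255.2 kb and SECISBP2 41.2 kb. With equal library totals the list had 4 cytoplasmic and 6 nuclear genes (all tested genes on that scale, 16.2% and 38.3%).

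Homologues and relatives of selenoproteins that have no UGA selenocysteine codon in the annotation were counted beside the selenoprotein genes. Which amino acid they carry in place of selenocysteine was not examined. Of 5 tested, 3 were called cytoplasmic and 1 nuclear, against 25.9% and 26.5% of all tested genes (35.6% cytoplasmic among protein-coding genes). Their median log2 fold change was 1.43. GPX8, a peroxidase of the ER, was at 1.72, glutathione reductase (GSR) at 1.71 and SEPHS1, a relative of SEPHS2 that was also counted in the list before, at 1.43. The nuclear one was MSRB3, a methionine sulfoxide reductase, at -1.69. GSR, which is related in structure to the thioredoxin reductases, had normalized counts of 1553, 1564, 4860 and 5341. The cytoplasmic libraries lay well above the nuclear ones.

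The partners of these enzymes in the thioredoxin and glutathione systems were mostly cytoplasmic. Of 18 tested, 15 were called cytoplasmic and 3 nuclear, against 25.9% and 26.5% of all tested genes (35.6% cytoplasmic among protein-coding genes). Their median log2 fold change was 1.79. PRDX5 and PRDX1, peroxiredoxins that are reduced by thioredoxin, were at 3.39 and 3.10, and SRXN1, which repairs oxidized peroxiredoxins, was at 3.20. MSRA, a methionine sulfoxide reductase, was at -2.01, RRM2, a subunit of ribonucleotide reductase, at -0.92, and GCLC, which starts glutathione synthesis, at -0.46. With equal library totals the list had 12 cytoplasmic and 3 nuclear genes (all tested genes on that scale, 16.2% and 38.3%).

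Of 7 partners of the ER selenoproteins, 4 were called cytoplasmic, 1 was called nuclear and 2 did not pass, with a median log2 fold change of 0.78. Among all tested genes 25.9% were called cytoplasmic and 26.5% nuclear, and among protein-coding genes 35.6% were called cytoplasmic. The largest cytoplasmic values were 2.12 for SELENOS, itself a selenoprotein that binds p97, 1.94 for VCP, which encodes p97, and 1.10 for DERL2, which forms part of the exit channel of the ER. UGGT2, which encodes a partner of SELENOF, was the nuclear one. UGGT2 had normalized counts of 6059, 6038, 730.5 and 639, with a log2 fold change of -3.14 ± 0.12 (SE), and it spans 251.9 kb. With equal library totals the list had 2 cytoplasmic and 3 nuclear genes (all tested genes on that scale, 16.2% and 38.3%).

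**Figure D5:**
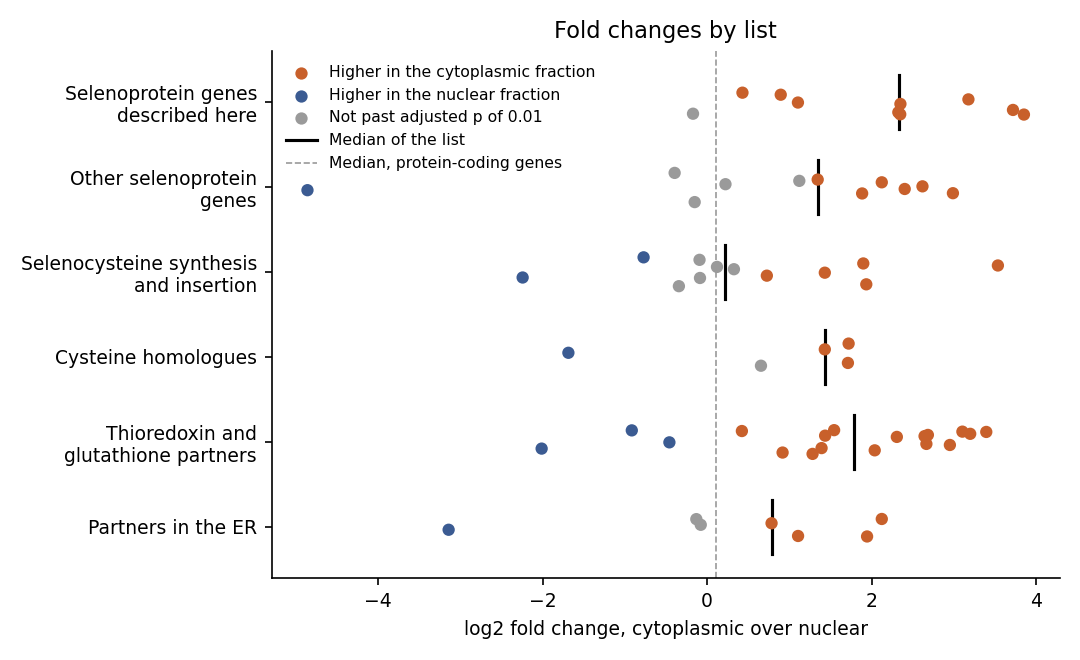
Log2 fold change, cytoplasmic over nuclear, of the tested genes of each list, colored by call at an adjusted p of at most 0.01, with the median of the list as a black bar and the protein-coding median of 0.11 as a dashed line. The 10 selenoprotein genes have a median of 2.33, and the genes of selenocysteine synthesis and insertion one of 0.22 with 2 genes called nuclear.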

How the data were processed

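RNA of 2 nuclear and 2 cytoplasmic fractions of HEK293T cells was sequenced. The authors aligned reads to hg38 with STAR and counted them with featureCounts 2.0.2 over exons and introns, after removing overlapping stretches and readthrough transcripts from a GENCODE annotation. The deposited table holds, per gene, a mean normalized count (a signal that the authors averaged over all libraries), a log2 fold change with its standard error on the log2 scale, a Wald score, and a deposited p-value with its Benjamini-Hochberg adjusted p-value, all from the authors' DESeq2 comparison. These columns are the authors' own comparison and were used because the table has no other values. No column of single libraries was left unused (0).

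Whole counts per library were recovered by searching for the 4 counts that return the printed mean, fold change and standard error under the same negative binomial fit. Of 23333 tested genes, 22060 (94.5%) had 1 solution. For the 10 genes, the fold change was met to within 3.67e-10, and the next best solution missed it by at least 2.10e-07. On counts simulated around those of solved genes, with the same fit and the same dispersion for all, 1430 of 1435 genes were solved and 0 wrongly. Unsolved genes and the search range used for the 10 genes were not part of this simulation. The sign of the fold change showed which libraries were nuclear. Recovered counts sum to 21413924 and 18558698 (nuclear) and 14282041 and 13170237 (cytoplasmic), and unsolved genes hold 29.8% of the summed mean. Size factors were 1.34, 1.19, 0.853 and 0.755.

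Intervals are normal 95% intervals from the standard error. Equal totals and centring shift each log2 fold change, with p recomputed. limma 3.58.1 was run on log2(normalized count + 1), a pseudocount of 1, and tested on simulated data. Structure came from GENCODE 44, which 99.1% of tested genes matched. All 10 genes are named, and in each list the called genes with the 3 largest values in each direction. The genes and lists were chosen with earlier results of these data known. TRU-TCA1-1 and PRDX2 had no row under the symbol used and were not analysed here.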

Additional observations from a re-analysis of the deposited data

How the results depend on the processing

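The count of 9 genes higher in the cytoplasmic fraction stayed at 9 under an adjusted p of 0.05 and a minimum mean of 50. It was also 9 with limma on the recovered counts, a fit that called 11068 of 13490 genes with means over 50. The count was 8 under Bonferroni adjustment and when centred on the protein-coding median. It was 7 with a log2 fold change over 1 and with equal library totals. With equal library totals, 1 gene (TXNRD2) was higher in the nuclear fraction, the median log2 fold change of the 10 genes was 1.67, and SELENOF turned to -0.23. Over all 21 tested selenoprotein genes the median was 1.88. Leaving out each library in turn, added after seeing the data and fitted with limma on the recovered counts, kept 9 genes in each case when genes had a mean over 50 (a fraction left with 1 library is assumed to vary like the other). Without that minimum the count ranged from 0 to 9. It was 0 without nuclear library A and 0 without nuclear library B, where no gene at all was called, and the lowest adjusted p of the 10 genes was 0.0133 and 0.0119. The cause was not tested. The genes higher in the nuclear fraction ranged from 0 to 0 over these fits. No paired analysis was possible because the recovered libraries could not be tied to replicate numbers. For the same reason leaving out a replicate by number was not run, and TMM, edgeR and DESeq2 fits, planned only for counts given as such, were not run on the recovered counts. The lowest counts, those of SELENOM, give the least precise fold change.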
